A study of Mus musculus with 2 samples.

Results

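DNA repair and damage response genes were followed on arrays of testis RNA from 10-day-old mice, 1 array from Mili-/- animals (homozygous mutant) and 1 from Mili+/- animals (heterozygous). MILI, the product of Piwil2, is a Piwi protein of male germ cells that binds piRNAs. A gene was taken as a member if a probe set carried its symbol alone and the symbol began with one of a set of repair gene stems (Rad, Msh, Mlh, Pms, Brca, Xrcc, Ercc, Fanc, Parp, Apex and Chek with their numbers or letters, and Xpa, Xpc, Ogg1, Mutyh, Ung, Mre11, Nbn, Atr, Blm, Wrn and Prkdc). Rad51ap1 was left out by the same rule. This gave 45 genes read by 55 probe sets, out of 8251 genes on the array, and each gene is given by its brightest probe set.

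Per the labels, spermatogenesis in the mutant stops early in the first meiotic prophase, and day 10 was used because dying cells appear in the mutant testis at day 11. The labels name neither the strain, nor the mutant allele's structure, nor how many animals gave each RNA sample. Polyadenylated RNA of whole testes was measured, so fewer cells of a type and less RNA per cell cannot be told apart. With 1 array for each genotype there was no replicate and no test, and every difference describes these 2 arrays. Piwil2 had no annotated probe set, and the genotype was therefore not checked on its own transcript.

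The deposited values are linear signal intensities. Differences are Mili-/- minus Mili+/- on the log2 scale, after each array was centred on its median, which removed a shift of 0.11. A gene passed the brightness filter if its signal reached the array median (41.55 in Mili-/- or 38.5 in Mili+/-) on at least 1 array. Of the 45 members, 35 passed, against 5095 of all 8251 genes. Error could be estimated only from genes read by several probe sets, which differed among themselves with an SD of 0.31 over 720 genes. It covers neither animals nor hybridisations. Control probe sets gave 3' to 5' signal ratios of 1.008 in Mili-/- and 1.001 in Mili+/- for Gapdh, and of 1.52 in Mili-/- and 1.53 in Mili+/- for Actb.

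Repair pathways divide by the lesion they handle. Mismatch repair removes replication errors, base excision repair removes small damaged bases, nucleotide excision repair removes bulky adducts, the Fanconi anaemia proteins act on crosslinks between strands, and double-strand breaks are sealed by end joining or by homologous recombination. The recombination proteins have a further task in the testis, since meiotic cells cut their own chromosomes early in prophase and mend the breaks on the homologue. Checkpoint kinases halt the cell while damage remains.

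The promoters of the members at the ends of the range are shown, chosen only by the size of the difference. They are Msh3 and Rad23b at the high end and Ercc1 and Fancg at the low end, by the brightest probe set. A second probe set of Rad23b stood at -0.27, so its place there is not settled. Each is the 250 bases before the annotated start, 5′ to 3′ on the gene's strand, from RefSeq on GRCm38.p6. Capitals mark matches on either strand to the GC box GGGCGG, the CCAAT box CCAAT, or the E2F forms TTTGGCGC and TTTCGCGC. The ETS motif CCGGAAG was also searched and had no match in these 4 windows. The Msh3 window is chr13:92355004-92355253 on the minus strand, that of Rad23b chr4:55349792-55350041 on the plus strand, that of Ercc1 chr7:19344821-19345070 on the plus strand, and that of Fancg chr4:43010302-43010551 on the minus strand.
Msh3: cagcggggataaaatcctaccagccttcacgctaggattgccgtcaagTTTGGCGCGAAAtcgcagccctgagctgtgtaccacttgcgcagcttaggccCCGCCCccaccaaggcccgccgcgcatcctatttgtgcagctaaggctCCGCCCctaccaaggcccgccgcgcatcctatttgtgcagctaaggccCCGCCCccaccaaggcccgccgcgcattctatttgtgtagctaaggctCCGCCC
Rad23b: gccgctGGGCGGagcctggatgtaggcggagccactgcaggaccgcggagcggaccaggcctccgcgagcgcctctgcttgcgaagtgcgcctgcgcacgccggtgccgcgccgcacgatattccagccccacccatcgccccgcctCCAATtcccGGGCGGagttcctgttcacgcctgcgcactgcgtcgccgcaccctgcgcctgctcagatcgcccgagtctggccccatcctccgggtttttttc
Ercc1: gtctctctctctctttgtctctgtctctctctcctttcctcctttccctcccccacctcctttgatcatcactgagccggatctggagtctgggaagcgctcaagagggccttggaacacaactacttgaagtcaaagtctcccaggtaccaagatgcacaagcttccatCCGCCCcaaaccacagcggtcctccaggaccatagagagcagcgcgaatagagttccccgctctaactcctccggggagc
Fancg: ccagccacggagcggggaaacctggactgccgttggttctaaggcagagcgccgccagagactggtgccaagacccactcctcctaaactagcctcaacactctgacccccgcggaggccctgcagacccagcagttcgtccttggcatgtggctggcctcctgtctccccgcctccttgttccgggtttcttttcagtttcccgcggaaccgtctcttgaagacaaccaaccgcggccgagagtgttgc

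The Msh3 window held 4 GC boxes, each 48 bases from the next. It also held both E2F forms in 1 overlapping match, and no other listed window of a member held either form. Among promoters of genes on the array, 0.749% held the first E2F form and 0.476% the second, and over all promoters in the table the shares were 0.417% and 0.256%. The Fancg window held no match to these motifs. A promoter was listed for 36 of the 45 members, with 40 promoters in all. CCAAT occurred in 60% of these, against 34.6% of the 8408 promoters of genes on the array and 33.8% of all 32851. Counted by gene, it was 58.3% of members against 40.02% of genes on the array. GGGCGG occurred in 52.5% of the members' promoters, against 52.8% of those of genes on the array and 32.7% of all. CCGGAAG occurred in 10% against 11.3% and 6.91%. The members' median GC content was 58.6%, against 58.8% for genes on the array. The 13 members past the filter with a CCAAT match had a median difference of -0.30, and the 15 with a listed promoter and no match had -0.21. All these are matches of letters.

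Most repair genes differed little between the arrays, and as a group they stood slightly lower in Mili-/-. Their median difference was -0.23 over the 35 that passed, against -0.13 for all genes past the filter. Of the 35, 29 lay below 0 (82.9%), against 68.9% of all genes, and 23 lay below the median of all genes (65.7%). At a threshold of 1.5-fold, 3 members were higher in Mili-/- (8.57%, against 2.47% of all genes) and 3 were lower (8.57%, against 5.04%). None reached 2-fold in either direction, against 0.314% of all genes higher and 0.53% lower. The higher ones were Msh3, Parp16 and Rad23b. The probe sets of Rad23b disagree in sign (0.74 and -0.27), and by the probe set brightest on Mili+/- the count was 2 higher. The lower ones were Ercc1, Fancg and Fancc. Where each array had to reach its median, 2 were higher and 1 lower. The lower calls lie close to the threshold, and so does the higher call Parp16 (1.51-fold). Centred on the median of the genes past the filter, the split was 3 higher and none lower. The shares of all genes above were counted before these changes of setting and do not carry over to them. Centring moves all genes alike, so the distance between the members' median and that of all genes, -0.11, could not change.

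**Figure D1:**
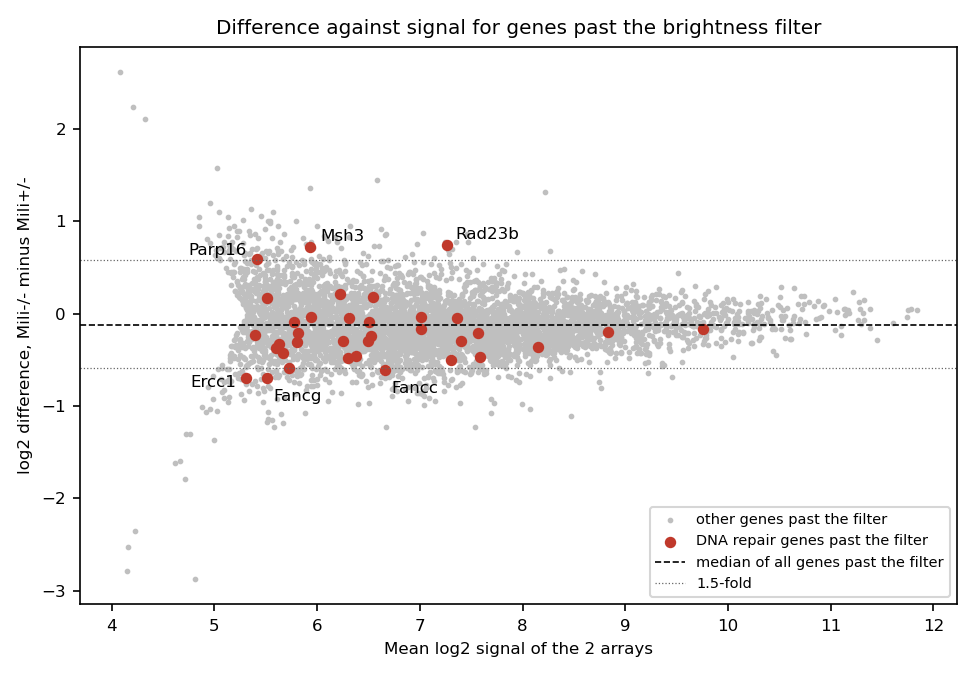
Difference in log2 units (vertical axis, Mili-/- minus Mili+/-) against mean log2 signal of the 2 arrays (horizontal axis) for each of the 5095 genes past the filter, with the 35 DNA repair genes in red. The dashed line is the median of all genes (-0.13) and the dotted lines mark 1.5-fold. The 3 named genes at the top (Rad23b by 1 of its 2 probe sets) and the 3 at the bottom are those past 1.5-fold, and the others lie between the dotted lines.

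The members spread about as widely as other genes, with an SD of 0.35 against 0.32. Dim genes scatter more, so the genes past the filter were divided into 3 nearly equal bins of mean signal. In the dim bin, 21 members had a median of -0.30, against -0.09 for all its 1699 genes. The middle bin had 11 members with a median of -0.21, against -0.16, and the bright bin 3 members with -0.20, against -0.12. Of the 35 members, only Rad23b lay outside the central 95% range of its bin, which ran from -0.69 to 0.46 in the middle bin, and its other probe set (-0.27) lay inside that range. The range of the dim bin, -0.80 to 0.78, held Msh3, Parp16, Ercc1 and Fancg.

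**Figure D2:**
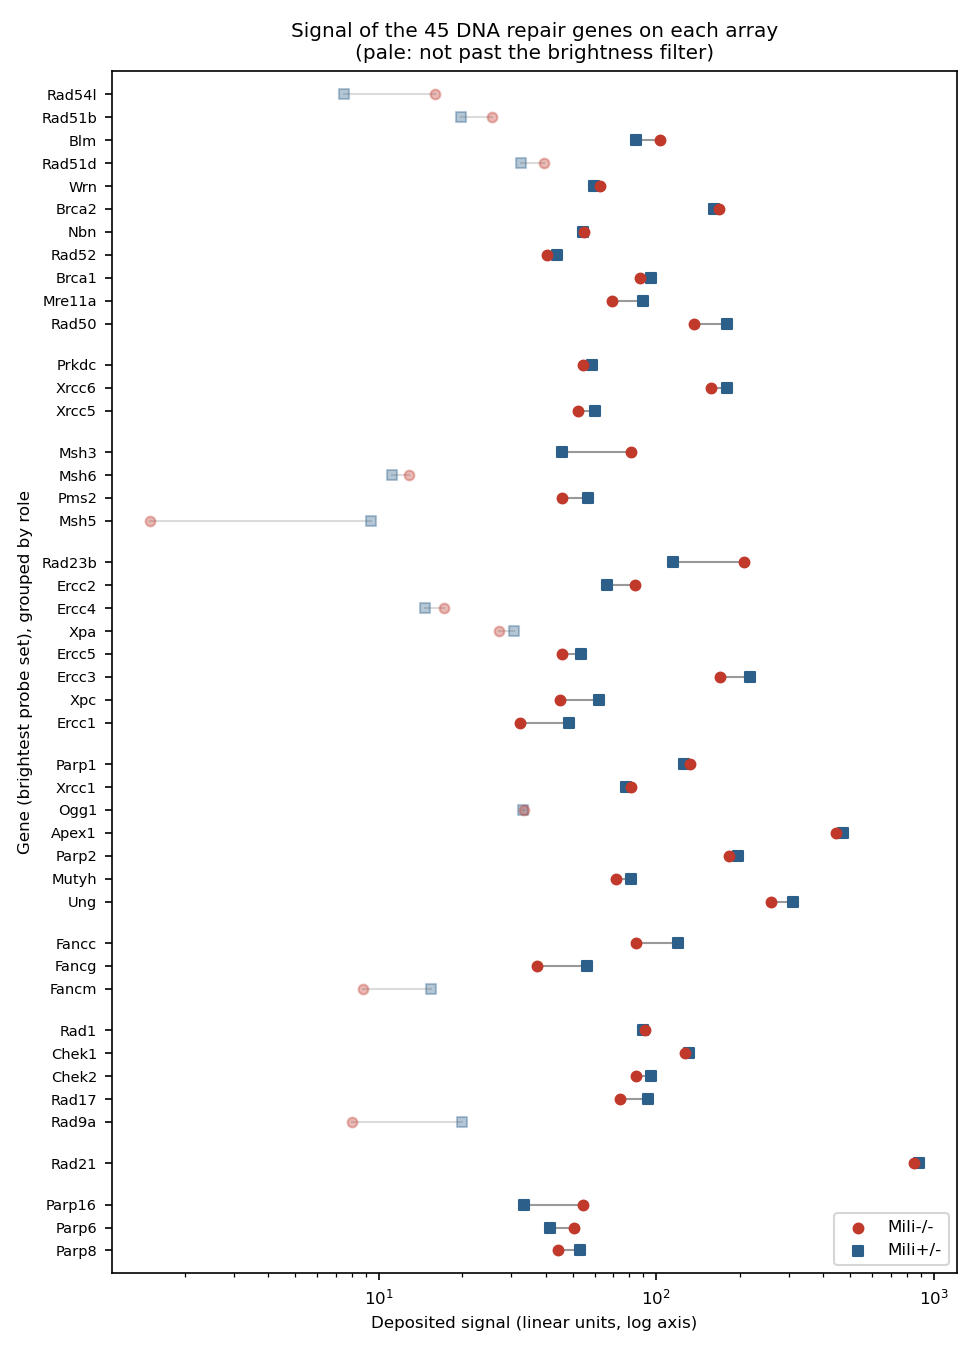
Deposited signal (horizontal log axis, linear units) of each of the 45 members on the Mili-/- array (red circles) and the Mili+/- array (blue squares), in rows grouped by role. Pale symbols are the 10 members that did not pass the filter. The 2 symbols of most genes nearly touch, and Msh3 (81.2 in Mili-/- and 45.7 in Mili+/-) and Rad23b (207.0 in Mili-/- and 114.6 in Mili+/-) show the widest gaps with Mili-/- to the right among the genes that passed.

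Genes that sense and mend double-strand breaks gave unlike values, also within 1 complex. The nuclease Mre11a and its ATPase partner Rad50 form a complex with Nbn that binds broken ends. Rad50 had 137.3 units in Mili-/- and 180.7 in Mili+/- (-0.51). Mre11a had 69.2 in Mili-/- and 89.7 in Mili+/- (-0.48), in a probe set that can read related sequences, as its suffix shows. Nbn, the subunit that recruits the kinase ATM, had 55.1 in Mili-/- and 54.3 in Mili+/- (-0.09). So 2 of the 3 subunits stood lower in Mili-/- and the remaining one was close to the median of all genes. Relative to that median, Rad50 stood at -0.38 and Mre11a at -0.36, little beyond the SD among probe sets (0.31). A difference between the subunits is therefore not settled.

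Brca2, which acts in strand exchange during homologous recombination, had 168.4 in Mili-/- and 161.5 in Mili+/- (-0.05). Brca1, which acts earlier in the same route, had 87.8 in Mili-/- and 96.0 in Mili+/- (-0.24). The helicase gene Blm had 103.4 in Mili-/- and 84.5 in Mili+/- (0.18), the only member of this group past the filter above 0. Another helicase gene of the same family, Wrn, stood at -0.04 (62.8 in Mili-/- and 59.8 in Mili+/-). Rad52, a DNA annealing protein gene, stood at -0.23 (40.3 in Mili-/- and 43.9 in Mili+/-) and passed the filter only by its Mili+/- signal. Over the 8 members past the filter the median was -0.16, with 4 below and 4 above the median of all genes. The recombination genes Rad51b (25.7 in Mili-/- and 19.8 in Mili+/-) and Rad51d (39.5 in Mili-/- and 32.7 in Mili+/-) did not pass, nor did Rad54l (15.9 in Mili-/- and 7.5 in Mili+/-), a motor protein gene of strand invasion.

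End joining genes stood together a little below the rest. Xrcc5 and Xrcc6 encode the Ku80 and Ku70 subunits that clamp onto DNA ends, and Prkdc encodes the kinase they recruit. Xrcc6 had 158.1 in Mili-/- and 179.9 in Mili+/- (-0.30), Xrcc5 had 52.2 in Mili-/- and 60.0 in Mili+/- (-0.31), and Prkdc had 54.4 in Mili-/- and 58.5 in Mili+/- (-0.21). All 3 lay below the median of all genes, within 0.19 of it, which is less than the SD among probe sets.

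Mismatch repair had 2 members past the filter, and they went opposite ways. Msh3, whose product recognises insertion and deletion loops, had 81.2 in Mili-/- and 45.7 in Mili+/-, a 1.65-fold higher signal in Mili-/- (0.72). Its signal was above the median on both arrays, and 98.6% of genes past the filter had a difference at or below it. The second probe set of Msh3 was near 0 (1.4 in Mili-/- and 2.0 in Mili+/-), so it gives no check. Pms2, which acts in the step after recognition, had 45.6 in Mili-/- and 56.8 in Mili+/- (-0.43). Msh6, whose product recognises single mismatches, was dim on both arrays (12.9 in Mili-/- and 11.2 in Mili+/-), as was Msh5, a meiotic crossover gene (1.5 in Mili-/- and 9.4 in Mili+/-).

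Nucleotide excision repair held the lowest member past the filter, Ercc1, and one whose probe sets disagreed, Rad23b. Ercc1, which encodes a subunit of the nuclease that cuts 5′ of the lesion, had 32.3 in Mili-/- and 48.7 in Mili+/-, a 1.63-fold lower signal in Mili-/- (-0.70). Only its Mili+/- signal reached the filter, a route that favours lower values. Its partner gene Ercc4 was dim (17.2 in Mili-/- and 14.7 in Mili+/-). Xpc, which finds distorted DNA, had 44.9 in Mili-/- and 62.4 in Mili+/- (-0.58), just short of the threshold. Ercc5, the nuclease gene for the opposite side of the lesion, stood at -0.33 (45.7 in Mili-/- and 53.4 in Mili+/-). Xpa, a scaffold gene of the same step, did not pass the filter (27.1 in Mili-/- and 30.7 in Mili+/-).

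The helicase subunits of the general factor TFIIH differed from each other. Ercc3 had 169.3 in Mili-/- and 217.9 in Mili+/- (-0.47). Ercc2 had 83.7 in Mili-/- and 66.7 in Mili+/- (0.22), and its second probe set, with 55.9 in Mili-/- and 42.6 in Mili+/-, stood at 0.28. The difference of Ercc2 was thus seen in both of its probe sets, and it lay above the median of all genes in each. Over the 6 members of the pathway past the filter the median was -0.40. The range ran from -0.70 to 0.22 (Ercc2) for the members other than Rad23b, which stood at 0.74 or -0.27 depending on its probe set.

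Rad23b, whose product stabilises XPC, gave opposite readings. Its brightest probe set had 207.0 in Mili-/- and 114.6 in Mili+/-, 1.67-fold higher in Mili-/- (0.74), the highest value among the members past the filter. The other probe set had 144.9 in Mili-/- and 161.7 in Mili+/- (-0.27). The brightest one carries a suffix for shared sequence and the other a suffix for an incomplete set of probes. Their gap of 1.01 was larger than in 96.4% of the 637 genes with exactly 2 probe sets past the filter, where the median gap was 0.26. The array that sets which probe set is brightest decides the sign, since on Mili+/- alone the other probe set is the brighter one. No direction can be given for Rad23b.

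**Figure D3:**
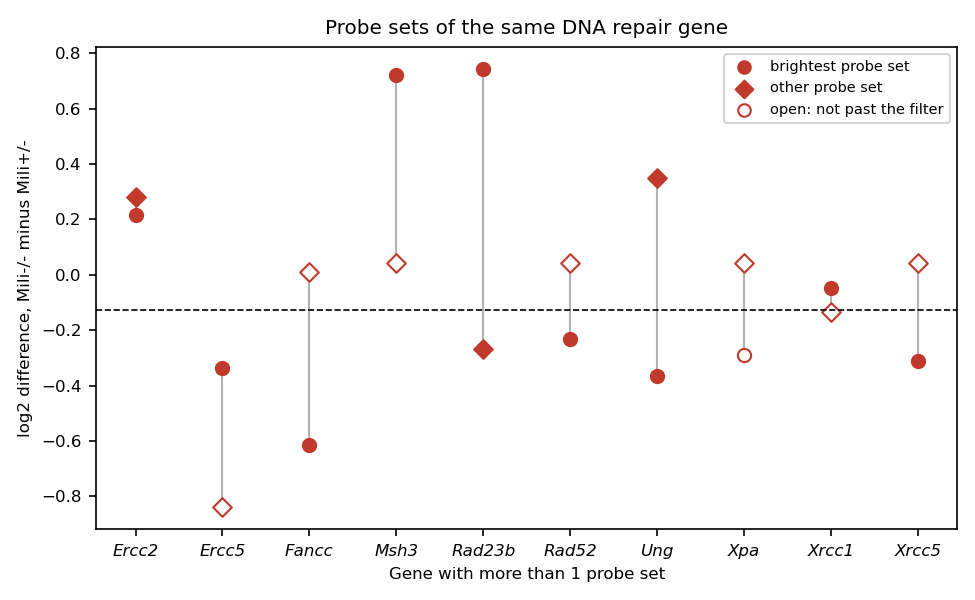
Difference in log2 units (vertical axis) of each probe set of the 10 members read by more than 1 (horizontal axis). Circles are the brightest probe set of the gene, diamonds the other, open symbols did not pass the filter, and the dashed line is the median of all genes. The probe sets of Ercc2 lie close together (0.22 and 0.28), and those of Rad23b (0.74 and -0.27) and Ung (-0.37 and 0.35) lie on either side of 0.

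By the brightest probe set, base excision and single-strand break repair varied little, from -0.37 to -0.04 over 6 members past the filter. Their median was -0.20. The low end was Ung, whose second probe set stood at 0.35, and the other members ran from -0.30 to -0.04. Apex1, the main endonuclease for sites that have lost a base, had 443.8 in Mili-/- and 471.0 in Mili+/- (-0.20). Parp1, which senses nicks and builds poly(ADP-ribose), had 132.3 in Mili-/- and 126.1 in Mili+/- (-0.04), in a probe set with a suffix for shared sequence. Parp2, a related enzyme gene, had 183.5 in Mili-/- and 197.0 in Mili+/- (-0.21). Xrcc1, a scaffold gene for nick repair, stood at -0.05 (81.0 in Mili-/- and 77.6 in Mili+/-), and Mutyh, a glycosylase gene for adenine opposite oxidised guanine, at -0.30 (71.5 in Mili-/- and 81.3 in Mili+/-). None of these differences from the median of all genes was as large as the SD between probe sets.

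Ung, which removes uracil from DNA, had 259.9 in Mili-/- and 310.3 in Mili+/- in its brightest probe set (-0.37). A further probe set, with a suffix for relaxed probe selection, had 141.8 in Mili-/- and 103.2 in Mili+/- (0.35). Its mean over both was -0.01, and no direction can be given for it either. Ogg1, the glycosylase gene for oxidised guanine, did not pass the filter (33.3 in Mili-/- and 33.0 in Mili+/-).

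Fanconi anaemia genes had a median of -0.66 over 2 members past the filter. It was the lowest of the role groups by the brightest probe set, but with the mean over probe sets it was -0.50, against -0.53 for nucleotide excision repair. Fancg had 37.3 in Mili-/- and 56.1 in Mili+/-, 1.62-fold lower in Mili-/- (-0.70), and reached the filter only in Mili+/-. Fancc had 84.9 in Mili-/- and 120.3 in Mili+/-, 1.53-fold lower (-0.61), and lay above the median on both arrays. Both encode subunits of the core complex that marks FANCD2 with ubiquitin at crosslinks. Fancm, the DNA translocase gene of the same complex, did not pass (8.8 in Mili-/- and 15.5 in Mili+/-). A second, dim probe set of Fancc had 17.4 in Mili-/- and 16.0 in Mili+/-. The mean over the probe sets of Fancc was -0.30. Of the 3 lower calls among the members, this pathway gave 2, and Ercc1 was the other.

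Checkpoint genes were lower or near the median of all genes, with a median of -0.23 over 4 members past the filter. Rad17, which loads the 9-1-1 clamp at damaged DNA, had 73.8 in Mili-/- and 93.7 in Mili+/- (-0.45). The kinase gene Chek2, a target of ATM, had 84.5 in Mili-/- and 96.1 in Mili+/- (-0.30). Chek1, the target of ATR, had 126.8 in Mili-/- and 131.5 in Mili+/- (-0.16). Both kinase genes lay within the SD among probe sets of the median of all genes. Rad1, a subunit of the clamp, had 91.2 in Mili-/- and 89.9 in Mili+/- (-0.09), while its partner Rad9a was dim (8.0 in Mili-/- and 19.9 in Mili+/-).

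Outside these routes, Rad21, a cohesin subunit that holds sister chromatids together, had 847.1 in Mili-/- and 882.2 in Mili+/- (-0.17). Among other ADP-ribosyltransferase genes, Parp16, whose product sits in the membrane of the endoplasmic reticulum, had 54.6 in Mili-/- and 33.5 in Mili+/-, 1.51-fold higher in Mili-/- (0.59). Only its Mili-/- signal reached the filter, a route that favours higher values. Parp6 stood at 0.17 (50.4 in Mili-/- and 41.5 in Mili+/-) and Parp8 at -0.38 (44.2 in Mili-/- and 53.2 in Mili+/-).

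**Figure D4:**
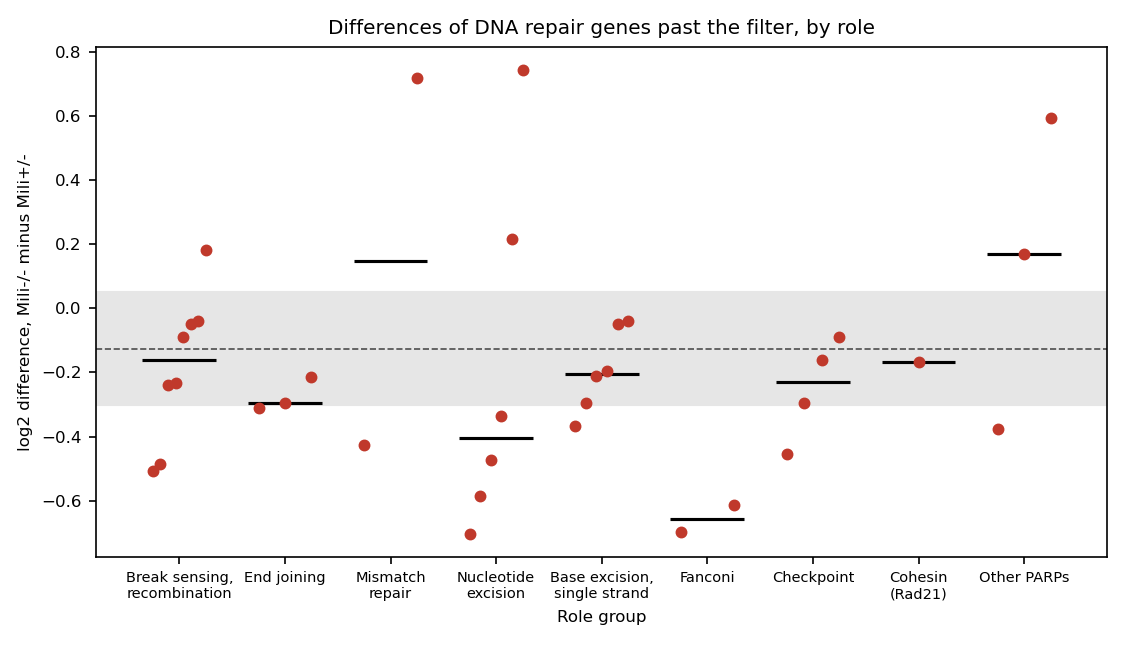
Difference in log2 units (vertical axis) of each member past the filter, by role group (horizontal axis), with the group's median as a black bar. The dashed line is the median of all genes past the filter and the grey band their central 50%. The 2 Fanconi genes lie at -0.61 and -0.70, the 3 end joining genes lie between -0.31 and -0.21, and nucleotide excision repair spans -0.70 to 0.74, where the highest point is the brightest probe set of Rad23b.

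Repair genes that the rule does not take were described from 4 further lists. Of 57 measured genes 50 passed the filter, with a median of -0.17, and 28 of the 50 lay below the median of all genes. At 1.5-fold, 1 was higher (2%, against 2.47% of all genes) and 4 were lower (8%, against 5.04%). Among break repair and signalling genes (7 past the filter, median -0.33), the lowest were the break kinase gene Atm, with 119.2 in Mili-/- and 168.3 in Mili+/- (-0.61), and Uimc1, which encodes a ubiquitin-binding partner of the BRCA1 complex, with 141.2 in Mili-/- and 196.8 in Mili+/- (-0.59). Rnf8, a ubiquitin ligase gene that acts at breaks, stood at -0.34 and Trp53bp1, an adaptor gene of the same response, at -0.33.

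Among 23 excision repair and repair synthesis genes the median was -0.26. Rfc4, a subunit of the clamp loader, had 110.5 in Mili-/- and 165.0 in Mili+/- (-0.69), and its largest subunit Rfc1 had 184.9 in Mili-/- and 237.0 in Mili+/- (-0.47). The nuclease genes Exo1 (-0.45) and Fen1 (-0.42) followed. Translesion synthesis genes had a median of -0.24 over 5, with Ube2v2 at -0.53 and Ube2n at -0.29, which encode partners in a ubiquitin-conjugating enzyme. Rev3l, the catalytic subunit gene of polymerase zeta, stood at -0.24 and Hltf, a ubiquitin ligase gene, at 0.06.

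The checkpoint and p53 list had a median of -0.05 over 15 genes past the filter, and 10 of them lay above the median of all genes. Timeless and Tipin encode partners in a complex that protects replication forks, and they went opposite ways. Timeless had 142.1 in Mili-/- and 72.6 in Mili+/- (0.86), and Tipin had 80.3 in Mili-/- and 120.2 in Mili+/- (-0.69). Zmat3, a p53 target gene, had 59.6 in Mili-/- and 39.9 in Mili+/- (0.47), and Topbp1, an activator of ATR, stood at -0.42.

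Markers of several cell types differed between the arrays beside these values. Of 11 measured germ cell markers 8 passed the filter, with a median of -0.58 and a summed signal over all 11 of 2311.8 in Mili-/- and 2780.4 in Mili+/-. Of the 8, 1 passed only through its Mili+/- signal. The germ cell median was -0.53 over the 7 that passed on both arrays and -0.29 without the filter. Genes of dividing cells had a median of -0.26 over 17 of 18, with sums of 3705.3 in Mili-/- and 4059.5 in Mili+/-. Of the 17, 1 passed only through Mili+/-. The median was -0.23 over the 16 that passed on both arrays, and also without the filter. Sertoli cell markers had a median of 0.07 over all 13, with sums of 6265.1 in Mili-/- and 5402.9 in Mili+/-. Leydig cell markers stood at -0.29 (4 of 6, with sums of 724.2 in Mili-/- and 795.4 in Mili+/-) and peritubular ones at -0.06 (4 of 5, with sums of 1954.2 in Mili-/- and 1929.2 in Mili+/-). Of the 4 Leydig markers, 1 passed only through Mili+/-, and the 3 that passed on both arrays had a median of -0.36. Without the filter the medians were -0.15 for Leydig and 0.01 for peritubular markers. All sums here are of deposited signals, which were not centred. Some testis markers of both tubule and interstitium thus reached the median on each array, and others did not pass the filter. Adipocyte markers had a median of 0.90 over 5 of 7, with sums of 537.3 in Mili-/- and 269.0 in Mili+/-. Of these, 3 passed only through their Mili-/- signal, and the 2 that passed on both arrays had a median of 0.74. Erythroid markers had 0.80 over 4 of 6 (2054.7 in Mili-/- and 1520.1 in Mili+/-), of which 2 passed only through Mili-/-. Their median was 0.61 over the 2 that passed on both arrays and 0.53 without the filter. Macrophage markers had 0.41 over 7 of 9 (666.4 in Mili-/- and 557.1 in Mili+/-), and 0.25 over the 6 that passed on both arrays. Without the filter the macrophage median was 0.10, and 2 of the 7 past it lay below 0. No marker was listed at 0 on either array, but neither was any of the 8251 genes, so this does not show detection. The part of these shifts in the values of the repair genes was not tested.

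None of the 45 members lies on the X chromosome, against 3.14% of the genes on the array, and chromosome 4 holds 6 of them (13.3%, against 6.02%).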

How the data were processed

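Polyadenylated testis RNA of Mili-/- and Mili+/- mice was measured on 1 single-colour array each. The authors deposited signal intensities on a linear scale, with 1 value for each probe set. To judge by the numbers, they appear scaled to a common level, since the mean without the lowest and highest 2% was 100.048 in Mili-/- and 100.053 in Mili+/-. For the software and the background correction, the step is not given in the sources used here. Of 12488 probe sets, 66 controls were left out. Of the other 12422, 10833 had 1 gene symbol, 396 several and 1193 none. Symbols come from the platform annotation and were updated by Entrez ID through RefSeq (GRCm38.p6), which matched 10817.

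Signals were floored at each array's 20th percentile (7.0 in Mili-/- and 6.3 in Mili+/-), converted to log2 and centred on the array median. A gene took its probe set with the highest mean signal. Every member past the filter could be named with its values, by role, and members that did not pass with their signals only. From each further list the 4 with the largest absolute difference past the filter are named. The members, lists, thresholds and promoter motifs were chosen with earlier results of these data known. The second probe sets of Rad23b and Ung, the motif matches and 2 of the alternative settings were picked out after values were seen, and the 4 promoters were shown by the size of their genes' differences.

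The scripts were first tested on simulated data. No test between genotypes was possible, and the number of arrays limits the precision. Python 3.11.15, NumPy 2.4.6, pandas 2.3.3, statsmodels 0.14.6 and matplotlib 3.10.9 were used.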

Additional observations from a re-analysis of the deposited data

How the results depend on the processing

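No paired analysis was possible because each genotype has 1 array. The median of the 35 repair genes, -0.23, ranged from -0.24 to -0.11 over the alternatives and stayed below the median of all genes in each of the 13 settings, by 0.08 to 0.16. These were no centring, quantile normalization, loess, no floor, a higher floor (40th percentile), no filter, a filter at the 75th percentile or on both arrays, the mean over probe sets, no suffixed probe sets, platform symbols, and, added after the data were seen, the probe set brightest on Mili+/- and centring on the genes past the filter. No centring and centring on the genes past the filter shift all genes alike, so they cannot change the distance between the 2 medians. The floor settings and platform symbols also left it at -0.11. The count at least 1.5-fold higher, 3, was 1 with the stricter filter, 1 with the mean over probe sets and 0 at 2-fold. The count as much lower, 3, was 5 without the filter, 0 at the 75th percentile, 1 with both arrays required, 0 when centred on the genes past the filter, 0 at 2-fold and 12 at a laxer threshold of log2 0.32. It was 2 with no centring, quantile normalization or loess, where Fancc fell short of the threshold. Of all genes past the filter, 21.2% lay at or below the Ercc5 value (-0.33), just past the laxer threshold. At or below the Xrcc5 value (-0.31), just short of it, lay 23.6%. For the changes of filter, centring, normalization and averaging, the share of all genes was not counted, so those counts have no background beside them. Past the filter, the lower quartile of all genes was -0.30, against -0.40 for the members. The mismatch repair median was -0.17 without the filter, which lets in Msh5 and Msh6, and -0.02 with the mean over probe sets, against 0.15. The nucleotide excision repair median was 0.13 with the filter at the 75th percentile, against -0.40. That filter leaves only Ercc3 (-0.47) and Rad23b by its brightest probe set (0.74), for which no direction can be given. With both arrays required, the median was -0.33. Rad23b stood at -0.27 by the probe set brightest on Mili+/- and at 0.24 by the mean over its probe sets. Averaging also takes in dim probe sets, and gave 0.38 for Msh3. Signals near background limit the 10 genes that did not pass the filter, and 1 array per genotype limits all.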
